A study of Mus musculus with 12 samples.

Results

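The genes described here are 10 genes of the endoplasmic reticulum (ER), chosen by name as chaperones and targets of the unfolded protein response: Hspa5, Hsp90b1, Dnajb9, Sdf2l1, Calr, Pdia4, Pdia6, Creld2, Herpud1 and Xbp1. They are 10 of the 24100 genes in the table of counts, and all 10 were among the 14263 genes that had enough reads to be tested. RNA was sequenced from mouse embryonic fibroblasts (MEFs) of 2 lines, each derived from the embryos of a different mother, with wild-type (WT) and RTF2-deficient cells in each line. WT cells were Rtf2+/+ and RTF2-deficient cells were Rtf2-/lox, so that Cre, a recombinase that removes the floxed part of a gene, is meant to leave them without an intact copy. Cells of all 4 groups had been immortalized with SV40 large T antigen and had received Cre from a retrovirus 72 hrs before harvest, so the WT cells carry both as well. Each group had 3 libraries, which a figure legend of the study calls technical replicates, and p-values therefore measure the spread between libraries and not that between embryos. WT and RTF2-deficient cells of a line are from different embryos, so within each line genotype and embryo cannot be told apart. RTF2 is a replisome protein, and the comparison asks which transcripts differ once it is lost.

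Libraries of WT line 1 held 41403910 to 42143397 counts in all and those of RTF2-deficient line 1 held 41989154 to 43042046. Those of WT line 2 held 40985986 to 44695002 and those of RTF2-deficient line 2 held 39360167 to 42618208, so the 4 groups had similar depth. Values are given as CPM, a gene's counts scaled to a common library size after TMM normalization, and a log2 fold change is RTF2-deficient over WT unless another pair is named. For a gene with no count, counting error alone would allow up to 3 counts, which is 0.077 CPM in the shallowest library. Libraries of the same group differed by more than sampling noise (chi-square of 20.5 to 180 per degree of freedom in a pair), and all 12 were kept.

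Rtf2 itself, the gene targeted in these cells, gave 44.9, 44.8 and 47.2 CPM in the libraries of WT line 1 and 57.8, 52.9 and 50.9 CPM in those of WT line 2. In RTF2-deficient line 1 it gave 5.64, 5.44 and 6.29 CPM, and in RTF2-deficient line 2 it gave 6.66, 6.49 and 6.33 CPM. Every RTF2-deficient library was thus below every WT library, with a log2 fold change of -3.01 ± 0.0567 (SE, adjusted p = 2.45e-11 by edgeR's quasi-likelihood test). The counts follow the genotype in each label, but 222 to 280 reads of Rtf2 remained in each RTF2-deficient library, and counts per gene do not show whether some cells kept the floxed part.

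The 12 libraries had the markers of fibroblasts. All 9 listed fibroblast genes were above a mean of 1 CPM, Fn1 being the most abundant with 8564 CPM, although Dcn stayed between 0.392 and 2.1 CPM. Markers of other cells were not all absent. Epcam, Krt8 and Krt14 (epithelial), Ptprc (leukocyte) and Pecam1 and Cdh5 (endothelial) stayed at or below 0.334 CPM, but Krt18 reached 12.4 CPM, Cd68 8.95 CPM, Kdr 15.2 CPM, Tek 12.5 CPM, Sox2 (neural) 10.9 CPM, Cdh1 3 CPM and, of muscle, Des 18.3 CPM and Myod1 2.91 CPM. Of the neural list Map2 had a mean of 53.2 CPM and Tubb3 of 34.3 CPM, both above Dcn. Of these markers Krt18 (log2 fold change 0.74, adjusted p = 0.0381 by edgeR) and Kdr (0.58, adjusted p = 0.0492) rose between genotypes and Sox2 (-0.85, adjusted p = 0.0499) fell, with overlapping genotypes for each. The log2 fold change of Sox2 was -1.51 in line 2 (adjusted p = 0.00213) and -0.14 in line 1 (adjusted p = 0.873). Cd68 was also called lower in line 2, with a log2 fold change of -1.07. It gave 5.18 to 8.95 CPM in WT line 2 and 2.85 to 3.82 CPM in RTF2-deficient line 2. WT line 2 differed from the other 3 groups in sex-linked genes, with 104.4, 91.8 and 106.7 CPM of the Y-linked gene Ddx3y and at most 0.132 CPM of Xist, whereas Xist reached at least 102.9 CPM in each of the other libraries. In line 2 the genotype and the sex of the embryo therefore cannot be told apart.

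Proteins that enter the ER are folded there by chaperones and by enzymes that form disulfide bonds. When unfolded proteins build up, the sensors IRE1 (Ern1), PERK (Eif2ak3) and ATF6 start the unfolded protein response, which raises the transcription of chaperones and of factors that remove misfolded proteins. Cells that secrete much collagen, such as fibroblasts, rely on this machinery.

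Levels of the members were compared per kb of transcript. Hsp90b1, which encodes GRP94, the HSP90 of the ER, had the highest mean level with 671 ± 61.5 CPM per kb (SD, n = 12). Calr, encoding the lectin chaperone calreticulin, followed with 655 ± 43.1 CPM per kb, within the spread of Hsp90b1. In every library of WT line 2, however, Calr was above Hsp90b1 per kb. Hspa5, encoding the HSP70 chaperone BiP, had 497 ± 70.1 CPM per kb. The disulfide isomerases Pdia6 and Pdia4 had 252 ± 22.3 and 167 ± 14.9 CPM per kb. These 5 genes, which encode abundant folding factors, had a higher level per kb than at least 97.4% of the 13327 tested genes with a known length. Xbp1 (44.4 ± 8.70 CPM per kb) and Creld2 (40.4 ± 5.76 CPM per kb) did not differ from each other beyond their spread. Herpud1 followed with 29.2 ± 8.64 CPM per kb, its range overlapping that of Creld2. Sdf2l1 and Dnajb9 were lowest with 16.9 ± 2.41 and 12.3 ± 2.47 CPM per kb, and their ranges overlapped too.

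Between genotypes, 2 of the 10 members changed: Sdf2l1 fell and Pdia4 rose. Of all genes tested 13.2% were called at an adjusted p under 0.05 (4.98% higher and 8.18% lower in RTF2-deficient cells), so 2 of 10 is near the background. These shares depend on the libraries. Without replicate 2 of RTF2-deficient line 2, 1158 of 14479 genes were called (335 higher), against 1878 of 14263 (711 higher), and none of the members. The median log2 fold change of the 10 members was 0.06 beside 0.0019 for all genes tested. None of the members had a log2 fold change beyond 1, a size that together with the adjusted p was reached by 1.72% of all genes, and for none did the 6 WT and the 6 RTF2-deficient libraries lie apart, as they did for 5.97% of all genes.

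**Figure D1:**
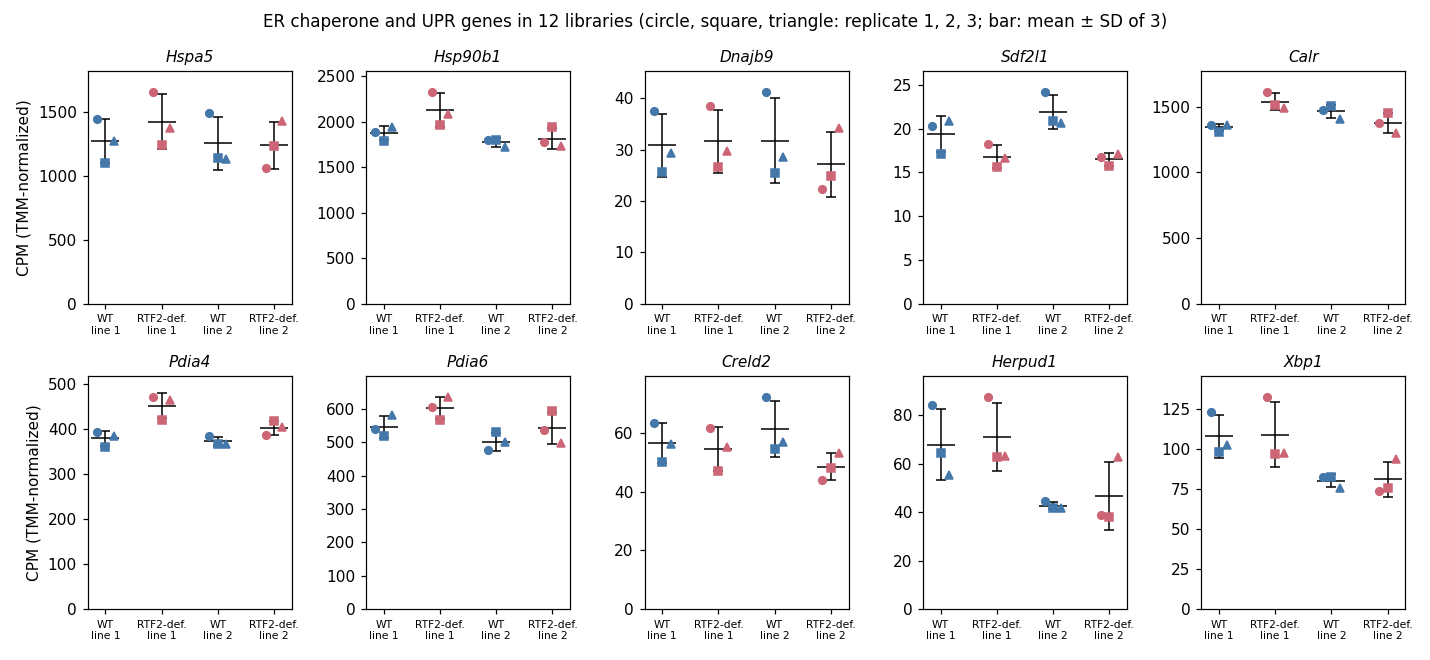
CPM of the 10 genes (vertical axes, from 0) in each library of the 4 groups (horizontal axes), with circles, squares and triangles for replicates 1, 2 and 3 and black bars for the mean ± SD of 3 libraries. Hspa5 lies between 1062 and 1657 CPM with overlapping groups. For Herpud1 and Xbp1 the libraries of line 2 are below those of line 1 within each genotype. Neither was called by edgeR with all libraries and the filter on low counts.

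Sdf2l1 encodes an ER protein that works with DnaJ cochaperones of BiP. It gave 20.3, 17.1 and 20.9 CPM in WT line 1 and 18.2, 15.6 and 16.7 CPM in RTF2-deficient line 1. In WT line 2 it gave 24.2, 20.9 and 20.7 CPM, and in RTF2-deficient line 2 it gave 16.8, 15.7 and 17.1 CPM. The groups overlapped in line 1, where the second library was the lowest of each genotype, and did not overlap in line 2. Libraries with the same replicate number deviated together in line 1, as given below. There Sdf2l1 was lower in the RTF2-deficient library than in the WT library of every number. It was still not called in line 1 with the replicate number as a block. Over both lines Sdf2l1 fell by 0.31 on the log2 scale (SE 0.0754, 95% interval -0.47 to -0.15, adjusted p = 0.0192 by edgeR's quasi-likelihood test). Its call was lost when the transcripts' GC content (log2 fold change -0.22, adjusted p = 0.0827) or length (-0.23, adjusted p = 0.107) was corrected for, with a term for the interferon-stimulated genes (-0.23, adjusted p = 0.0588), and without replicate 2 of RTF2-deficient line 2 (-0.28, adjusted p = 0.0536). With any 1 library left out the log2 fold change stayed between -0.36 and -0.26.

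Pdia4 encodes a disulfide isomerase of the ER, also known as ERp72. It gave 392, 360.3 and 384.7 CPM in WT line 1 and 469.9, 418.8 and 463.7 CPM in RTF2-deficient line 1. In WT line 2 it gave 383.7, 366.8 and 366.4 CPM, and in RTF2-deficient line 2 it gave 386.3, 417.2 and 403.6 CPM. Within each line the RTF2-deficient libraries were all above the WT libraries, while over both lines the highest WT library lay above the lowest RTF2-deficient library. Pdia4 rose by 0.18 on the log2 scale (SE 0.0520, 95% interval 0.07 to 0.29, adjusted p = 0.0397 by edgeR's quasi-likelihood test). The call was lost without any of 8 of the 12 libraries (adjusted p up to 0.0887), although the log2 fold change stayed between 0.16 and 0.20 with any 1 left out. It was also lost with the correction for GC content (adjusted p = 0.0603), without a filter on low counts (adjusted p = 0.0516) and without the line term (adjusted p = 0.0696). The same held with the replicate number as a block, as given below. With the correction for transcript length it was kept (adjusted p = 0.0128).

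The central chaperones gave no call between genotypes, except that Hspa5 was called with a term for the interferon-stimulated genes, added after seeing the data, where its log2 fold change was 0.25 (adjusted p = 0.0307 by edgeR). All 10 interferon-stimulated genes themselves had a log2 fold change below 0 between genotypes (median -1.70), with 0 called, so this term is not independent of genotype. Hspa5 gave 1448.5, 1099 and 1272 CPM in WT line 1, 1657, 1238 and 1378 CPM in RTF2-deficient line 1, 1495, 1141 and 1134 CPM in WT line 2 and 1062, 1231 and 1427 CPM in RTF2-deficient line 2. The groups overlapped in each line. Without that term its log2 fold change of 0.07 had a 95% interval of -0.18 to 0.32 (adjusted p = 0.719 by edgeR), which leaves room for a modest change in either direction. Hsp90b1 had a log2 fold change of 0.11 (95% interval -0.04 to 0.26) and ranged from 1717.6 to 2325.5 CPM over the 12 libraries. Calr had a log2 fold change of 0.05 (95% interval -0.10 to 0.21) and ranged from 1298 to 1613 CPM. Pdia6, a disulfide isomerase that binds BiP, had 0.13 (95% interval -0.0030 to 0.26) and ranged from 475.5 to 635.1 CPM.

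The cochaperone Dnajb9 (ERdj4) ranged from 22.3 to 41.2 CPM and had a log2 fold change of -0.09 (95% interval -0.44 to 0.25). Creld2, a secreted ER stress-inducible protein, ranged from 44.1 to 72.2 CPM with a log2 fold change of -0.19 (95% interval -0.42 to 0.03). Herpud1, which takes part in the removal of misfolded proteins from the ER, ranged from 38.1 to 87.5 CPM with a log2 fold change of 0.10 (95% interval -0.22 to 0.41). Xbp1, the transcription factor whose messenger RNA is spliced by IRE1, ranged from 74.0 to 132 CPM with a log2 fold change of 0.02 (95% interval -0.19 to 0.22). Counts per gene do not show how much of the Xbp1 transcript was spliced.

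**Figure D2:**
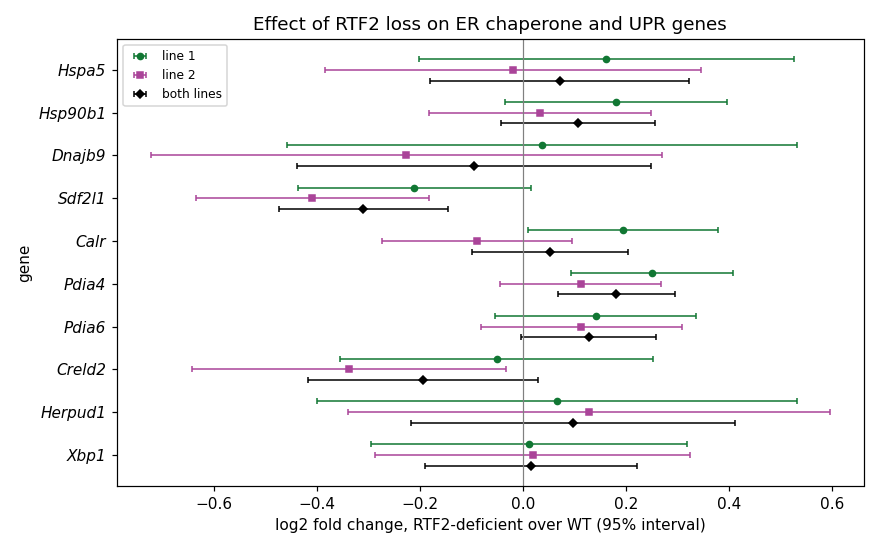
Log2 fold change, RTF2-deficient over WT (horizontal axis), of the 10 genes (vertical axis) in line 1 (circles), line 2 (squares) and both lines (diamonds), with 95% intervals as bars. The intervals of Sdf2l1 for both lines (-0.47 to -0.15) and of Pdia4 for both lines (0.07 to 0.29) do not reach 0. Nor do those of Calr (0.01 to 0.38) and Pdia4 (0.09 to 0.41) in line 1. The same holds for Sdf2l1 (-0.6350 to -0.1825) and Creld2 (-0.64 to -0.03) in line 2.

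Within line 1 none of the members was called, beside 3.20% of all genes. That share is 456 genes, and with a library left out 192 to 480 genes were called. At an unadjusted p under 0.05 by edgeR there were 2 members, beside 1986 of 14263 genes. Those were Calr, with a log2 fold change of 0.20 (adjusted p = 0.319), and Pdia4, with 0.25 (adjusted p = 0.0977), and DESeq2 called both (adjusted p = 0.0254 and 0.00431), beside 861 of 14263 genes. With the replicate number as a block, the unadjusted p by edgeR was 0.0712 for Calr, 0.011 for Pdia4 and 0.0486 for Sdf2l1, and none of the members was called. Hsp90b1, Calr and Pdia4 did not overlap between genotypes in line 1, that is 3 of 10 members beside 21.1% of all genes. Within line 2, Sdf2l1 was called with a log2 fold change of -0.41 ± 0.103 (SE, adjusted p = 0.0248 by edgeR), which is 1 of 10 members beside 12.5% of all genes. This call was lost without replicate 1 of WT line 2 (adjusted p = 0.0834) and without replicate 1 (adjusted p = 0.0774) or 2 (adjusted p = 0.118) of RTF2-deficient line 2. Sdf2l1, Pdia4 and Creld2 did not overlap in line 2, beside 29.5% of all genes.

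The difference between the effects in the lines was called for none of the members by edgeR or DESeq2 and, by edgeR, for 1.29% of all genes. Calr was the member with an unadjusted p under 0.05 in this test, beside 1211 of 14263 genes. It gave 1358, 1311 and 1362 CPM in WT line 1 and 1613, 1513 and 1489 CPM in RTF2-deficient line 1, against 1476.1, 1509.5 and 1408 CPM in WT line 2 and 1380, 1455 and 1298 CPM in RTF2-deficient line 2. The effect in line 2 minus that in line 1 was -0.28 (95% interval -0.54 to -0.02, adjusted p = 0.508 by edgeR and 0.0540 by DESeq2).

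Herpud1 and Xbp1 differed more in value between the lines than between the genotypes, without passing the threshold in edgeR with all libraries and the filter on low counts. Herpud1 gave 84.1, 64.6 and 55.2 CPM in WT line 1 and 44.5, 41.7 and 41.8 CPM in WT line 2, and 87.5, 62.8 and 63.1 CPM in RTF2-deficient line 1 and 39, 38.1 and 62.8 CPM in RTF2-deficient line 2. Within each genotype the libraries of line 2 were below those of line 1, although in RTF2-deficient cells the nearest libraries both round to 62.8 CPM. The log2 fold change of line 2 over line 1 was -0.67 ± 0.213 (SE, adjusted p = 0.0597 by edgeR) in WT and -0.61 ± 0.212 (adjusted p = 0.22) in RTF2-deficient cells. Xbp1 gave 123.2, 98.2 and 102.7 CPM in WT line 1 and 82.6, 82.3 and 75.7 CPM in WT line 2. It gave 132.4, 97.0 and 97.5 CPM in RTF2-deficient line 1 and 74.0, 75.8 and 93.9 CPM in RTF2-deficient line 2. For Xbp1 the same fold change was -0.43 ± 0.139 (SE, adjusted p = 0.0646 by edgeR) in WT and -0.42 ± 0.139 (adjusted p = 0.191) in RTF2-deficient cells.

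By edgeR none of the members was thus called between the WT lines, beside 14.0% of all genes, or between the RTF2-deficient lines, beside 1.94%. At an unadjusted p under 0.05 the WT lines gave 2 members, beside 4011 of 14263 genes, and the RTF2-deficient lines 4, beside 1911. DESeq2 called Herpud1 (adjusted p = 0.0144) and Xbp1 (adjusted p = 0.0234) between the WT lines, beside 2748 of 14263 genes, and 0 members between the RTF2-deficient lines, beside 702. Between the WT lines edgeR called Herpud1 without a filter (beside 1893 of 19682 genes) and without replicate 3 of WT line 1 (beside 1580 of 14487). It called both genes without replicate 1 of RTF2-deficient line 1 (beside 1985 of 14469) or replicate 3 of RTF2-deficient line 2 (beside 2221 of 14453). The WT lines also differ in Xist and Ddx3y, so line and sex cannot be told apart there. Calr, Herpud1 and Xbp1 did not overlap between the WT lines (3 of 10, beside 30.2% of all genes). Hsp90b1, Calr, Pdia4, Herpud1 and Xbp1 did not overlap between the RTF2-deficient lines (5 of 10, beside 19.8% of all genes).

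Among the genes around the members, the 6 for UPR sensors and their activating proteases all had a log2 fold change above 0 (median 0.25), as had 50.4% of all genes. Of these 2 rose and 0 fell, and here and in the lists below such counts stand beside 4.98% of all genes called higher and 8.18% called lower. Eif2ak3, encoding PERK, rose by 0.31 ± 0.0870 (SE, log2, adjusted p = 0.0386 by edgeR), a call lost without any of 8 of the 12 libraries (adjusted p up to 0.0788). Mbtps2, encoding the site-2 protease that frees ATF6, rose by 0.31 ± 0.0633 (adjusted p = 0.00725). This gene lies on the X chromosome, and in line 2 sex and genotype cannot be told apart. Its mean was 40.4 CPM in WT and 47.6 CPM in RTF2-deficient line 1, and 36.5 and 47.7 CPM in line 2. Of the 6 genes 0 were called in line 1 and 1 in line 2, beside 3.20% and 12.5% of all genes. Ern1, encoding IRE1, had a log2 fold change of 0.24 (adjusted p = 0.199). That of Atf6 was 0.26, with adjusted p = 0.0737 by edgeR and 0.031 by DESeq2. Transcripts of Ern1, Atf6, Eif2ak3 and Mbtps2 have 6946, 7246, 4513 and 4797 bases. Over all genes the median log2 fold change was higher for longer transcripts, as given below.

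Of 17 other ER folding factors 2 rose and 2 fell, with a median log2 fold change of 0.07 and 14 of the 17 above 0. Sdf2, the paralogue of Sdf2l1, gave 44.6, 41.2 and 42.9 CPM in WT line 1 and 27.9, 27.9 and 29.2 CPM in RTF2-deficient line 1, with 34.9, 40.5 and 33.4 CPM in WT line 2 and 24.8, 24.3 and 27.8 CPM in RTF2-deficient line 2. Every RTF2-deficient library was below every WT library, and Sdf2 fell by 0.55 ± 0.0601 (SE, log2, adjusted p = 0.00013 by edgeR). Hyou1, a large HSP70 of the ER, rose by 0.28 ± 0.0763 (adjusted p = 0.0305), a call lost without any of 6 libraries, and Ero1a, an oxidase that recharges disulfide isomerases, rose by 0.26 ± 0.0676 (adjusted p = 0.0263), a call lost without any of 5. P4hb, named here after its value was seen, encodes the main disulfide isomerase and fell by 0.24 ± 0.0609 (adjusted p = 0.0242). Sdf2 overlaps Supt6 on the opposite strand, and whether counting used strand is not given in the sources used here.

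Of 15 genes of ER-associated degradation 2 rose and 0 fell (median log2 fold change 0.07). Edem3, which trims the mannose of misfolded glycoproteins, rose by 0.36 ± 0.0526 (SE, log2, adjusted p = 0.000921 by edgeR), and every RTF2-deficient library was above every WT library. Its relative Edem1 rose by 0.19 ± 0.0571 (adjusted p = 0.0442), a call lost without any of 9 libraries (adjusted p up to 0.107). Of 16 genes of the translocon and signal peptidase 0 rose and 1 fell by edgeR (median log2 fold change 0.08). In value 15 of the 16 had a log2 fold change above 0, beside 50.4% of all genes.

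The gene that fell was Ssr4, which encodes the delta subunit of the translocon-associated protein complex. It gave 58.9, 55.8 and 66.9 CPM in WT line 1 and 34.0, 30.0 and 29.0 CPM in RTF2-deficient line 1, and 49.4, 63.4 and 60.3 CPM in WT line 2 and 25.1, 22.6 and 28.2 CPM in RTF2-deficient line 2. No WT library was as low as any RTF2-deficient library, and the log2 fold change was -1.08 ± 0.0878 (SE, adjusted p = 1.63e-05 by edgeR). It was -0.97 in line 1 (adjusted p = 0.00184) and -1.19 in line 2 (adjusted p = 0.000254). Ssr4 lies on the X chromosome, as Mbtps2 does, and in line 2 sex and genotype cannot be told apart. Ssr1, Ssr2 and Ssr3, for the other subunits of the complex and named here after their values were seen, were not called by edgeR, with log2 fold changes of 0.17, 0.09 and 0.14, but DESeq2 called Ssr1 and Ssr3.

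None of the 8 genes of the PERK arm, which include Atf4, Ddit3 and Trib3, was called between genotypes by edgeR or DESeq2 (median log2 fold change -0.09). At an unadjusted p under 0.05 by edgeR there were 0 of the 8, beside 4070 of 14263 genes. Of 5 substrates that IRE1 is known to cleave 0 rose and 1 fell: Bloc1s1 fell by 0.515 ± 0.102 (SE, log2, adjusted p = 0.00641 by edgeR). Of the 5 substrates 0 were called in line 1 and 1 in line 2, beside 3.20% and 12.5% of all genes. In the annotation Bloc1s1 overlaps Rdh5 on the same strand. None of 12 cytosolic and mitochondrial chaperones was called by either tool (median log2 fold change 0.01). Again 0 had an unadjusted p under 0.05 by edgeR, beside the same 4070 of 14263 genes.

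The called genes differ in length and base composition, and so did the effect of genotype across the table. In the fifth of tested genes with the shortest transcripts (up to 1793 bases) the median log2 fold change was -0.06, with 52 genes higher and 314 lower, and in the fifth with the longest (from 5077 bases) it was 0.08, with 261 higher and 133 lower. In the fifth with the lowest GC content the median was 0.05, and in that with the highest it was -0.10. Sdf2 has 1268 bases, Ssr4 800 and Bloc1s1 550, whereas Edem3 has 6327 and Mbtps2 4797. All 5 were also called by edgeR with offsets for length, where the log2 fold changes were -0.98 for Ssr4, -0.47 for Sdf2, -0.40 for Bloc1s1, 0.30 for Edem3 and 0.29 for Mbtps2. They were called too with offsets for GC content, with -1.01 for Ssr4, -0.53 for Sdf2, -0.42 for Bloc1s1, 0.32 for Edem3 and 0.26 for Mbtps2.

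Most pairs of members varied together between libraries of the same group. With group means removed, Hspa5 followed Creld2 (Pearson's r = 0.98), Dnajb9 (r = 0.97) and Xbp1 (r = 0.82) in log2 CPM over 12 libraries, and 38 of 45 pairs of members had r above 0 (median 0.54), beside 50.2% of all pairs of tested genes. Hsp90b1 followed Calr (r = 0.85), Pdia4 (r = 0.77) and Pdia6 (r = 0.62). Pdia4 also followed Creld2 (r = 0.83) and Hspa5 (r = 0.79). Pdia6 had r below 0 with 6 of the other 9 members, from -0.01 with Sdf2l1 to -0.54 with Herpud1. These are descriptions of 12 libraries that share lines, handling and normalization. Hspa5, Dnajb9, Creld2, Herpud1 and Xbp1 had their highest value of each group in the same library: replicate 1 of WT line 1, of RTF2-deficient line 1 and of WT line 2, and replicate 3 of RTF2-deficient line 2.

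**Figure D3:**
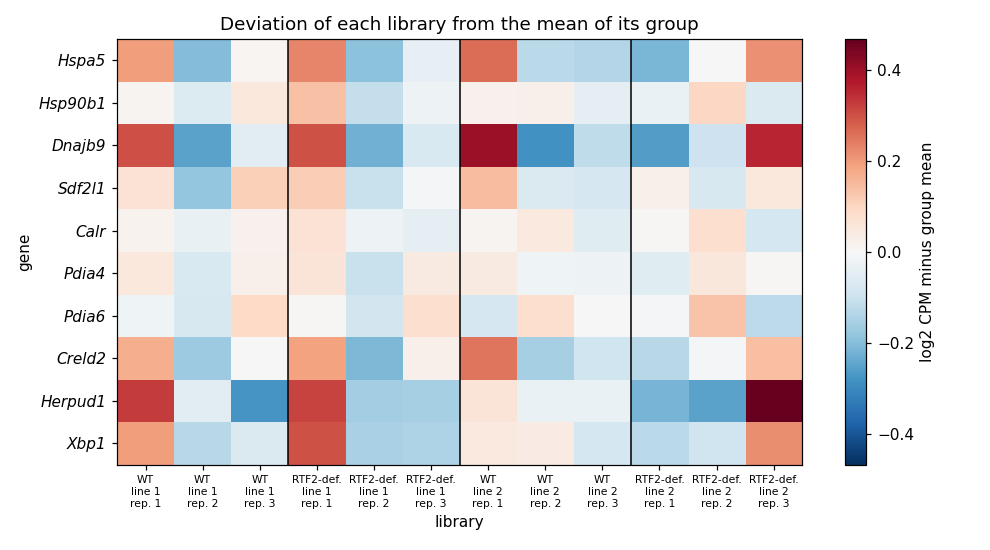
Difference between the log2 CPM of a library and the mean of its group (colour, red above and blue below) for the 10 genes (vertical axis) in 12 libraries (horizontal axis, groups parted by lines). In replicate 1 of RTF2-deficient line 1, 9 of the 10 genes had the highest value of their group.

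The same libraries were high in genes outside the ER. The 10 interferon-stimulated genes, all detected and with Bst2 as the most abundant, summed to 363.5, 63.4 and 95 CPM in WT line 1 and 128, 58.4 and 62.1 CPM in RTF2-deficient line 1. They summed to 6073.7, 559.4 and 1701.2 CPM in WT line 2 and 103.5, 226.5 and 2292.7 CPM in RTF2-deficient line 2. In each group the library with the highest Hspa5 thus also had the highest sum. Ddit3, a PERK target that encodes CHOP, was highest in the same libraries (30.6, 28.7, 43.3 and 33.2 CPM), and the mitochondrial chaperone Hspd1 was lowest there (346.1, 384.5, 380.9 and 404.2 CPM), both named here after their values were seen. What part the state of these libraries had in the members' values was not tested beyond a fit with the mean log2 CPM of these 10 genes as a term, added after seeing the data, in which Hspa5 was called, as given above, and Dnajb9 had a log2 fold change of 0.19 (adjusted p = 0.0877 by edgeR).

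The genes most like Hspa5 over the 12 libraries, among 9280 genes with a mean of at least 10 CPM, were Ppp1r15a (Pearson's r = 0.94), Trip4 (0.93), Cdkn2aip (0.91), Odr4 (0.91) and the member Dnajb9 (0.91). Ppp1r15a, which encodes GADD34, gave 60.6, 42.2 and 51.9 CPM in WT line 1 and 69.5, 48.8 and 56.0 CPM in RTF2-deficient line 1, and 70.2, 43 and 51.5 CPM in WT line 2 and 43.2, 48 and 59.3 CPM in RTF2-deficient line 2. The genes most like Herpud1 were Zfp9 (r = 0.97), the collagen gene Col1a2 (0.97), the member Xbp1 (0.96), Timp3 (0.96) and Ctif (0.95). Col1a2 was lower in WT line 2 (3721.7 to 3928.7 CPM) than in WT line 1 (5094 to 7025.5 CPM), as Herpud1 was.

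Promoters of the members were searched on both strands, from 250 bases before to 50 after the start in RefSeq's annotation of GRCm38, for sequences known from genes of the unfolded protein response. All 10 members had a promoter in the table. The ER stress response element, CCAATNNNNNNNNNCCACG, was found in 5 of 10 (Hspa5, Hsp90b1, Calr, Pdia6 and Creld2) and in 0.119% of 32851 promoters. It is not particular to the members, since of the other listed ER genes 43 had a promoter in the table, the rest being not analysed here, and 5 of the 43 had it as well (Canx, Dnajc3, Ero1b, Syvn1 and Derl3). Its second form, ATTGGNCCACG, was found in Herpud1, in 1 of the 43 (Dnajb11) and in 0.0365% of promoters. TGACGTGG, the core of the unfolded protein response element, was in 0 of 10 members, in 3 of the 43 (Txndc5, Ube2j1 and Vcp) and in 0.676% of promoters. Pdia4 and Sdf2l1, the members called between genotypes, had none of the 3 in this window, as had Dnajb9 and Xbp1. The short parts CCACG and CCAAT were each in 9 of 10 members (all but Xbp1), beside 32.8% and 37.4% of promoters. Of the 43 other ER genes, 30 had CCACG and 24 had CCAAT. The matches in the 6 members that had the element or its second form are shown to compare its strand and place between promoters, with the element in capitals and 12 bases on each side, on the strand of the gene.
Hspa5, chr2:34772013-34772055, + strand: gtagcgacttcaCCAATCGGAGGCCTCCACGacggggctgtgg
Hsp90b1, chr10:86705626-86705668, - strand: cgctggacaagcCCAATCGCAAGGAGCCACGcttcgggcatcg
Hsp90b1, chr10:86705521-86705563, - strand: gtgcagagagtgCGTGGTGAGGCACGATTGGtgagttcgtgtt
Calr, chr8:84847063-84847105, - strand: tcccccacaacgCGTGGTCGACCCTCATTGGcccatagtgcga
Pdia6, chr12:17266479-17266521, + strand: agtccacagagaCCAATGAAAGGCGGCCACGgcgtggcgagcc
Creld2, chr15:88819508-88819550, + strand: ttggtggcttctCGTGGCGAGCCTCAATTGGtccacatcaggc
Herpud1, chr8:94386365-94386399, + strand: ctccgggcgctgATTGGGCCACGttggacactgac

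In Hspa5 and Pdia6 and at the first match in Hsp90b1 the element reads along the gene, and in Calr and Creld2 and at the second match in Hsp90b1 it reads on the other strand. In Hspa5 it spans positions -65 to -47 from the start and in Herpud1 positions -52 to -42. A match is a description of the sequence, and binding was not measured. The elements are known from genes such as these, so a match in a member is not an independent result. In the annotation Hspa5 (chr2:34772090-34776529) overlaps Rabepk, and Pdia6 (chr12:17266589-17284785) overlaps Atp6v1c2, each on the opposite strand, so reads of these pairs could be mixed if counting did not use strand.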

How the data were processed

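Reads per gene from WT and RTF2-deficient MEFs were taken as the counts that the authors deposited, whole numbers without normalization under Entrez Gene identifiers. Their methods describe Salmon with tximport on mm10 gene models, but HTSeq with mm10 is named in the notes on processing that accompany the samples, and which tool made the counts is not settled. Every column was assigned to its library by name. Symbols and positions were from RefSeq (GRCm38), with 24045 of 24100 identifiers found, and transcript length and GC content from GENCODE.

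In R 4.3.3, edgeR 4.0.16 kept genes by filterByExpr, applied TMM and ran glmQLFit and glmQLFTest with line and genotype in the model. For effects within lines, differences between lines and the interaction, contrasts of 4 group coefficients were used. The Benjamini-Hochberg adjustment covered all genes tested, and a call is an adjusted p under 0.05. Each SE is the unshrunken log2 fold change, without its sign, over the root of the F statistic. Log2 CPM had a prior count of 2. The procedure was tested on simulated data.

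Genes named were Rtf2, the members, Ern1, Atf6, Eif2ak3, up to 3 called genes with the largest change and up to 2 with the largest difference between lines in each pathway list, the 5 genes most correlated with Hspa5 and with Herpud1, and markers. Other genes, such as Ddit3, Hspd1, P4hb, Ssr1, Ssr2, Ssr3, Derl3 and Trib3, were named after their values or sequences were seen. The members and lists were chosen with earlier results of these data known. Alternatives were RLE normalization, no filter, DESeq2 1.42.0, a replicate block, no line term, summed triplicates and each library left out. A term for the interferon score, corrections for GC content and transcript length, and line 1 alone were added after seeing the data.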

Additional observations from a re-analysis of the deposited data

Results flagged for a closer look

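Of the 5 listed sex-linked genes, 4 had unequal log2 fold changes in line 1 and line 2 by edgeR's test of the difference itself (line 2 minus line 1, on the log2 scale). The difference was 11.1854 for Xist (adjusted p = 0.000000108), -11.3221 for Ddx3y (adjusted p = 0.000717), -10.5444 for Uty (adjusted p = 0.0176) and -5.0371 for Kdm5d (adjusted p = 0.0000869). Eif2s3y, the fifth, was not called (adjusted p = 0.0862), but it gave 38.6, 54.2 and 40.1 CPM in WT line 2 and at most 0.0678 CPM in the other libraries. WT line 2 gave 35, 23.5 and 26.7 CPM of Uty and 32.1, 24.5 and 27.8 CPM of Kdm5d, and in the other libraries Uty was at most 0.0495 CPM and Kdm5d at most 1.43 CPM. Where counts are at or near 0 the fitted difference depends on the prior count and is no bound. In line 2 the sex of the embryo and the genotype cannot be told apart.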

How the results depend on the processing

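The number of members called between genotypes was 2 in the fit reported, with RLE normalization, with DESeq2 and with the interferon term, although the last called Hspa5 and Pdia4. It was 1 without a filter, without the line term, and with the length correction, and 0 with summed triplicates, with the GC correction and in line 1 alone (6 libraries). Of 14263 genes tested, 1878 were called in the fit reported, 1910 with RLE normalization, 2702 with DESeq2 and 1968 with the interferon term. The length correction called 2038, the GC correction 1854 and the fit without the line term 1227. Without a filter 1610 of 19682 genes were called, and in line 1 alone 367 of 13685. Summed triplicates leave 1 residual degree of freedom and called 0 of 14263 genes, Rtf2 included. Leaving out each library gave 0 to 2 members, 0 without replicate 2 of RTF2-deficient line 2, beside 1158 to 1974 genes in all. The median log2 fold change of the members stayed between 0.06 and 0.13 under the alternatives and between 0.01 and 0.10 with a library left out. In line 1 the count was 0 with edgeR and 2 with DESeq2, and between the WT lines it was 0, against 1 without a filter and 2 with DESeq2. With a library left out it ranged from 0 to 1 in line 2 and from 0 to 2 between the WT lines, where Herpud1 was called without replicate 3 of WT line 1 and Herpud1 and Xbp1 without replicate 1 of RTF2-deficient line 1 or replicate 3 of RTF2-deficient line 2. It was 0 in line 1, for the difference between lines and between the RTF2-deficient lines each time. Over all genes, fits with a library left out called 813 to 2372 in line 2 and 1260 to 2221 between the WT lines. They called 192 to 480 in line 1, 66 to 164 for the difference between lines and 119 to 400 between the RTF2-deficient lines.

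Dnajb9 changed sign with the interferon term (0.19) and in line 1 alone (0.034), and with a library left out it ranged from -0.178 to 0.029. Herpud1 ranged from -0.017 to 0.192 and Xbp1 from -0.053 to 0.073. None of these 3 genes was called between genotypes in any fit. Of the pathway genes, Eif2ak3 (adjusted p = 0.069), Hyou1 (0.0509), Ero1a (0.0667) and Edem1 (0.128) lost their calls without the line term, Ero1a with the interferon term (0.0677), and Edem1 also without a filter (0.0541), with the replicate block (0.0738) and with the GC correction (0.0729). In line 1 alone Ssr4, Sdf2 and Rtf2 were among those called and Edem3 was not (0.0996). DESeq2 called 9 of the other ER folding factors instead of 4, 4 genes of ER-associated degradation instead of 2 and 4 of the translocon instead of 1. Of all 14263 genes it called 2702 instead of 1878. The cause of these shifts was not tested. The interferon, GC and length terms and line 1 alone were chosen after seeing the data.

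With the replicate number as a replicate block within lines, 1 member (Sdf2l1) was called between genotypes (adjusted p = 0.0295, against 0.074 for Pdia4), and 1427 genes instead of 1878. Libraries with the same number deviated together in line 1 (r of 0.62, 0.43 and 0.48, each the highest for its library) but not in line 2 (-0.59, 0.17 and -0.28), where each correlated best with a library of another number (r of 0.65, 0.61 and 0.37), so the numbers do not pair the libraries of both lines. In line 1 the block called 0 members and 242 genes instead of 456, and Hspa5, higher in the RTF2-deficient library of each number there, had a log2 fold change of 0.16 (adjusted p = 0.732 by edgeR). Blocks lie within lines, so the comparisons between lines have no such value. The balance of directions among all genotype calls also moved. In RTF2-deficient cells 1297 of 2702 were higher with DESeq2 and 882 of 1854 with the GC correction. Without a filter 621 of 1610 were higher, and without the line term 345 of 1227.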

Other observations

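Derl3 and Trib3, named here after their values were seen, varied widely between libraries of a group. Derl3, a factor of ER-associated degradation, gave 1.55, 0.297 and 0.675 CPM in WT line 1 and 1.29, 0.196 and 0.634 CPM in RTF2-deficient line 1. It gave 2.06, 0.287 and 0.732 CPM in WT line 2 and 0.168, 0.231 and 0.791 CPM in RTF2-deficient line 2. In each group its highest library was the one with the highest Hspa5, and its log2 fold change between genotypes was -0.79 with a 95% interval of -2.16 to 0.57 (adjusted p = 0.429 by edgeR).

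Trib3, a target of the PERK arm, gave 47.1, 21.6 and 22.3 CPM in WT line 1, 34.3, 19.8 and 17.9 CPM in RTF2-deficient line 1, 28.5, 11.3 and 21.7 CPM in WT line 2 and 9.26, 10.8 and 31.7 CPM in RTF2-deficient line 2. The highest library of each group was again the same, and the log2 fold change between genotypes was -0.29 with a 95% interval of -1.05 to 0.47 (adjusted p = 0.617 by edgeR).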
